A study of Homo sapiens with 4 samples.

Results

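The genes described here encode enzymes that add or remove methyl and acetyl groups on histones. They were chosen by symbol alone, as protein-coding genes named KMT, KDM, KAT, SETD, HDAC, SIRT, EHMT or NSD with a number, together with EZH1, EZH2, EP300, CREBBP and DOT1L, and genes of chromosome Y were left out. Of 72 RefSeq genes with such a name, 53 had at least 1 YTHDF1 peak window and held 253 windows. The whole table had 26819 windows in 7550 genes, of which 24747 windows in 6676 genes were protein-coding. RNA immunoprecipitation sequencing (RIP-seq) had been performed in SNU638, a cell line established from a human gastric cancer. All 4 libraries came from cells made to overexpress YTHDF1. After 24 h without serum, the cells were stimulated for a further 24 h with IFN-γ at 10 ng/ml. The 2 IP-YTHDF1 libraries held RNA pulled down with YTHDF1, for which the methods name an anti-FLAG antibody, and the 2 Input libraries held RNA that had not been pulled down. No library of cells without IFN-γ or without added YTHDF1 was analysed here, so the values describe binding of the overexpressed protein in stimulated cells.

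Histone lysine methyltransferases ("writers") place methyl groups on fixed lysines of the histone tails, and lysine demethylases ("erasers") take them off. Acetyltransferases place acetyl groups that open chromatin, and the zinc-dependent histone deacetylases (HDACs) and NAD-dependent sirtuins remove them. Methylation of H3K4 and acetylation mark active promoters and enhancers, H3K36 methylation marks transcribed gene bodies, and H3K9 and H3K27 methylation accompany silencing. Acetyltransferases such as p300 and CBP act as coactivators at promoters that IFN-γ induces. YTHDF1 is a cytoplasmic protein that binds mRNA carrying N6-methyladenosine (m6A), so a window describes RNA from the gene of an enzyme and not the enzyme or its mark.

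Each window covered 50 bp and carried a single set of values (a signal value, a p-value and a q-value) for all libraries together. The signal value is a score of the peak whose scale is not stated, so it was used to order windows and not as a fold. The q-value did not exceed 0.05 in any row and had been adjusted within each gene over the windows tested there. No gene had more than 9 windows, so 9 is read as 9 or more. The table had no column for a single library. The spread between replicates and the depth behind a window are therefore unknown, and no comparison below carries a p-value between groups. A gene without a window may be unbound or may have too little RNA in these cells, and these cannot be told apart here. Of the 6 epithelial markers examined, EPCAM, KRT8, KRT18 and KRT19 had windows and CDH1 and CLDN4 had none, whereas 0 of 6 markers of leukocytes, fibroblasts and endothelium had a window.

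Most of these enzyme genes had YTHDF1 windows. Exon positions were not available, so it is not known which windows lay in mature mRNA. At least 1 window was found in 53 of the 72 genes (73.6%, Wilson 95% interval 62.4 to 82.4%), and the share over all RefSeq protein-coding genes was 31.9%. By class, 19 of 25 methyltransferases (76%), 15 of 19 demethylases (78.9%), 9 of 10 acetyltransferases (90%), 6 of 11 HDACs (54.5%) and 4 of 7 sirtuins (57.1%) had a window. The classes were not tested against each other, and their intervals overlap. Genes on the list were long: the median RefSeq interval was 64.2 kb in members with a window, shorter in members without one (25.99 kb), and 31.3 kb over the listed protein-coding genes. The part of gene length or RNA level in the share of members listed was not tested.

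**Figure D1:**
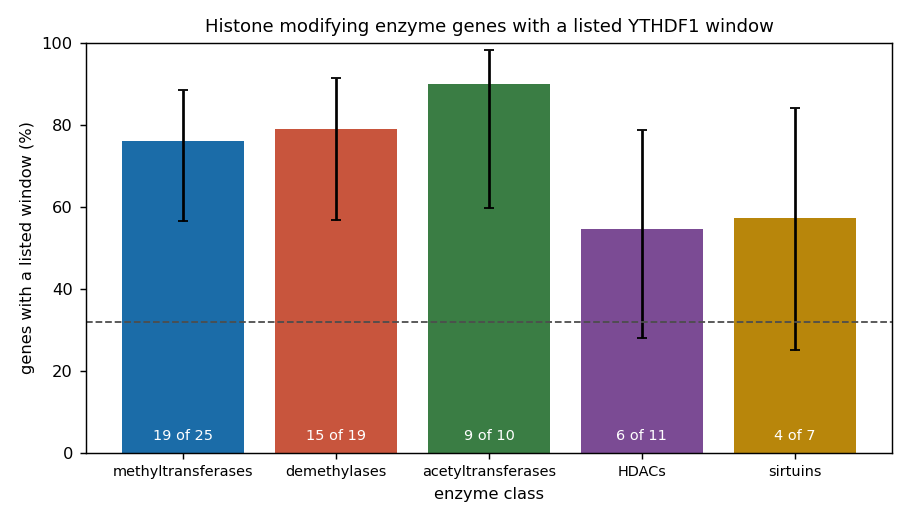
Share of histone modifying enzyme genes with at least 1 listed window (vertical axis, percent) in each enzyme class (horizontal axis), with the counts written in the bars, Wilson 95% intervals as error bars and the share over all RefSeq protein-coding genes (31.9%) as a dashed line. The bars run from 54.5% of HDACs to 90% of acetyltransferases, and the intervals of HDACs and sirtuins reach the dashed line.

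Once listed, the enzyme genes had more windows than a typical listed gene, but windows of about the same strength. The median number was 4 windows per gene (interquartile range 2 to 8), against 3 (1 to 5) over all listed protein-coding genes. At the limit of 9 stood 10 members (18.9%), where 12.8% of all listed protein-coding genes did, and 7 members (13.2%) had a single window, where 28.9% did. Among genes with at least 30 tested windows, the shares at 9 were closer, 23.3% and 20.9%. The strongest window of a gene had a median signal value of 2.32 (interquartile range 2.00 to 2.66) in the members and 2.23 (1.94 to 2.56) in all listed protein-coding genes, and 31 of 53 members lay above the latter median. Over single windows the medians were 1.81 and 1.83. A window with a signal value of at least 2 was present in 41 members (77.4%, background 69.5%), and a q-value of at most 0.001 was reached in 39 (73.6%, background 66.8%). Counted over the 72 genes, 41 reached that signal value and 39 that q-value, where 22.1% and 21.3% of all RefSeq protein-coding genes did. A Bonferroni limit over all tested windows was passed in 27 of the 72 genes, where 12.7% of all RefSeq protein-coding genes passed it. None of these shares was tested.

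The number of windows tested in each gene could be read from the q-value divided by the p-value, times the rank of that p-value. The number tested had a median of 56 in the members and 35 in all listed protein-coding genes. Per tested window the order of the medians was turned: 7.03% of a member's tested windows were listed, against 8.94%. Across the 53 members, tested and listed windows rose together (Spearman's rho 0.709, given as a description over genes of 1 table, with 0.585 over 6650 protein-coding genes). KDM1A, which encodes the H3K4 demethylase LSD1, had 9 windows listed of at least 30 tested, and KMT2D had 9 of at least 259. In genes at the limit of 9 the number tested is a lower bound, because windows that had passed may not be listed. For 8 of the 10 members at the limit (CREBBP, EHMT1, EP300, KDM1A, KDM2A, KDM2B, KMT2B and SETD5), the q-values skipped places in their order, so more windows had passed than were listed. The smallest possible numbers that had passed ranged from 10 in EP300, KDM1A and SETD5 to 15 in KMT2B and 16 in KDM2A. No skipped place was found in KMT2C or KMT2D, or in any of the 43 members with fewer windows.

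**Figure D2:**
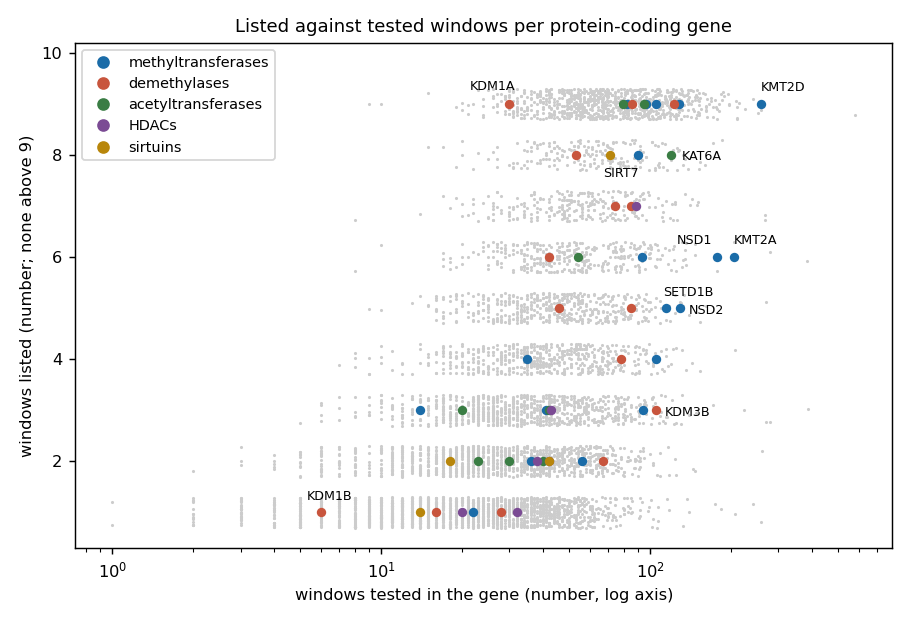
Number of listed windows (vertical axis, none above 9) against the number of windows tested in the gene (horizontal axis, log scale), with each coloured point an enzyme gene and each grey point a listed protein-coding gene, spread vertically at random within its number. Members with many tested windows, such as KMT2D with at least 259, lie to the right, and KDM1A with at least 30 stands at 9 near the left.

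All 7 chosen methyltransferases of H3K4 had windows, 48 in total (background 31.9% of all RefSeq protein-coding genes). KMT2C, which encodes an enhancer-bound H3K4 monomethyltransferase, had the strongest window of the methyltransferases. From the 5′ end its signal values were 1.97, 2.23, 3.12 and 2.69 within the first kb, then 1.81 at 121 kb and 1.73, 1.81, 1.81 and 1.81 at 287 to 297 kb. The peak value of 3.12 (q-value 4.83e-13) belonged to chr7:152435723-152435772 on the minus strand, 256 bp from the 5′ end, and exceeded the strongest window of 93.7% of listed protein-coding genes. The windows in the first kb were all stronger than those farther along. Its paralog KMT2D also had 9 windows, but none within 1 kb of the 5′ end and with signal values of 1.40 to 2.41.

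KMT2A, known as MLL1 and rearranged in leukaemia, had 6 windows of 1.60 to 2.74. Of these, 3 overlapped windows of the gene AP001267.5 on the same strand, the strongest among them, so reads there could be assigned to either gene. KMT2B had 9 listed windows of 1.07 to 2.55, all between 1.8 and 2.5 kb from the 5′ end. Unlisted windows could lie elsewhere in KMT2B, since at least 15 had passed. Its 7 adjoining windows at chr19:35720170-35720519 on the plus strand formed a block of 350 bp, the longest of any member. SETD1A and SETD1B, the catalytic subunits of the complexes that trimethylate H3K4 at promoters, had 8 windows of 1.28 to 2.29 and 5 of 1.64 to 2.13. SETD7, an H3K4 monomethyltransferase that also acts on other proteins, had 2 windows, both at 1.89.

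The chosen methyltransferases of H3K36 were likewise all listed, with 21 windows in 4 genes (background 31.9%). SETD2, the enzyme that trimethylates H3K36, had 4 windows: 1.82 and 2.7 at about 0.9 kb from the 5′ end, 1.92 at 41.3 kb and 1.65 at 44.1 kb. The strongest (q-value 4.22e-09, chr3:47163880-47163929, minus strand) stood well above the other 3 in the same gene. NSD1, NSD2 and NSD3, which dimethylate H3K36, had 6, 5 and 6 windows. Their strongest signal values were 2.59, 1.80 and 2.18, and 4 of the NSD3 windows lay in the first kb. None of the NSD1 and NSD2 windows did, but 3 NSD1 windows, its strongest among them, lay 28 to 128 bp from another annotated start of NSD1. DOT1L, the H3K79 methyltransferase, had 2.24 at 41.2 kb, 2.12 at 46.7 kb and 1.55 at 66.7 kb.

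Among the writers of silencing marks the picture was mixed. EZH1 and EZH2, which encode the catalytic subunits of Polycomb repressive complex 2 and methylate H3K27, had no window. EHMT1 and EHMT2 (GLP and G9a), enzymes that place 1 or 2 methyl groups on H3K9, had 9 windows of 0.88 to 1.71 and 2 windows of 1.25 and 2.00. EHMT1 thus stood at the limit of 9 windows, yet its strongest listed window exceeded that of only 9.08% of listed protein-coding genes. At least 12 EHMT1 windows had passed, so an unlisted one could be stronger. KMT5B and KMT5C, which complete H4K20 methylation, had 3 windows of 2.03 to 2.54 and 1 of 1.92, and KMT5A, which starts it, had none. Of the SET domain genes with no histone lysine assigned here, SETD5 had 9 windows (1.68 to 2.68), KMT2E 4 (1.67 to 2.32) and SETD3, an actin histidine methyltransferase, 3 (1.48 to 1.99), and SETD4, SETD6 and SETD9 had none.

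**Figure D3:**
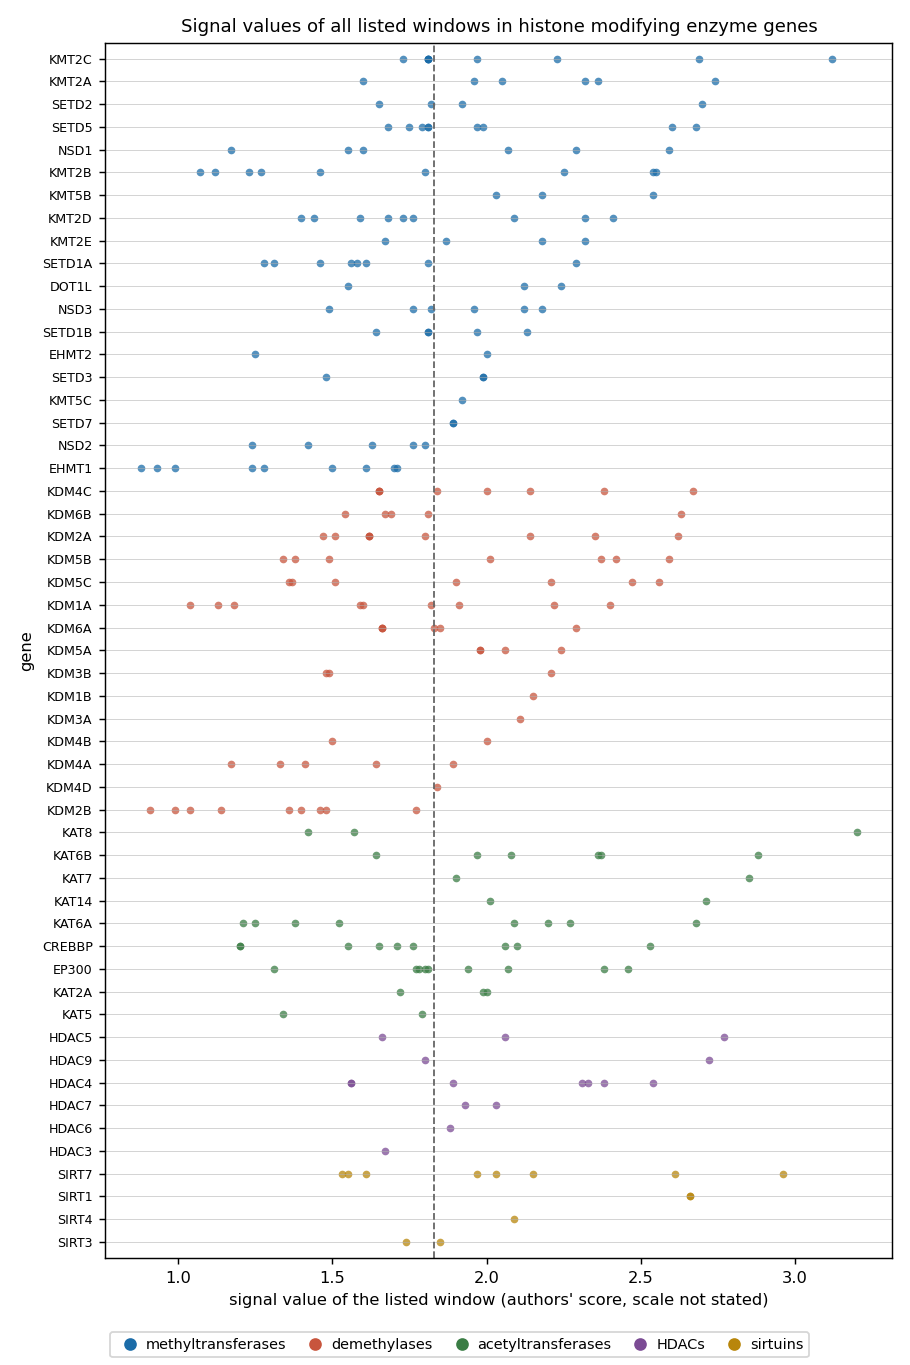
Signal value of each of the 253 listed windows (horizontal axis, score with no stated scale) in the 53 enzyme genes (vertical axis), coloured by class and ordered within a class by the strongest window, with the median over all listed protein-coding windows (1.83) dashed. KAT8 at 3.20 and KMT2C at 3.12 reach farthest to the right, and every window of EHMT1, NSD2, KDM2B, HDAC3 and KAT5 lies left of the dashed line.

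Every chosen demethylase of H3K4 had windows, 28 in 5 genes (background 31.9% of all RefSeq protein-coding genes). In each of the 5 at least 1 window lay in the first kb, where 49.7% of listed protein-coding genes had one. Over all members that share was 43.4%, and the 5 genes were not tested against it. KDM1A had 8 windows between 51 and 451 bp from the 5′ end, with signal values of 1.59, 1.18, 1.04, 1.91, 2.22, 1.60, 2.40 and 1.82 in that order, and a 9th of 1.13 at 11.1 kb. The highest value (q-value 2.67e-14) was that at chr1:23019844-23019893 on the plus strand. KDM1B, its flavin-dependent relative, had a single window of 2.15 at 83 bp, out of 6 tested. The JmjC enzymes KDM5A, KDM5B and KDM5C, which demethylate di- and trimethylated H3K4, had 4 windows of 1.98 to 2.24, 7 of 1.34 to 2.59 and 7 of 1.36 to 2.56. In KDM5B, 6 adjoining windows formed a 300 bp block at the 5′ end, whereas in KDM5C only 1 of 7 windows lay in the first kb.

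Of the H3K27 demethylases, KDM6A (UTX) had 6 windows of 1.66 to 2.29 and KDM6B (JMJD3) 5 windows of 1.54 to 2.63, and KDM7A, which acts on H3K9 and H3K27, had none. Lysine methyltransferases and JmjC genes with symbols outside the rule are given further below and were not counted by mark. Writers and erasers together, a window was present in 12 of 12 chosen genes for H3K4, 9 of 9 for H3K36, 8 of 9 for H3K9 and 2 of 5 for H3K27 (40%). The last share was near the 31.9% over all RefSeq protein-coding genes, and the marks were not tested against each other. KDM7A was counted for H3K27 alone, and KDM4A, KDM4B and KDM4C for both H3K9 and H3K36. KDM2A and KDM2B, H3K36 demethylases that bind unmethylated CpG islands, both stood at 9 windows, with ranges of 1.47 to 2.62 and 0.91 to 1.77. The 2 ranges overlapped, but 4 KDM2A windows lay above the strongest listed window of KDM2B. At least 16 windows had passed in KDM2A and at least 12 in KDM2B, so unlisted windows could change this order. KDM4A, KDM4B and KDM4C, which remove trimethyl groups from H3K9 and H3K36, had 5, 2 and 8 windows with strongest signal values of 1.89, 2.00 and 2.67. The strongest KDM4A window coincided over all 50 bp with a window of AL451062.3 on the same strand. KDM3A and KDM3B, the H3K9 mono- and didemethylases, had 1 window of 2.11 and 3 of 1.48 to 2.21. KDM4D had 1 window, at 1.84 and a q-value of 0.0467, and KDM4E, KDM4F and KDM8 had none.

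The acetyltransferases had the highest median strongest signal value of the classes, 2.68 over 9 genes. It was 2.38 in sirtuins, 2.29 in methyltransferases, 2.29 in HDACs and 2.24 in demethylases, and the classes were not tested against each other. All 5 MYST enzymes, a family named after its founding members, were listed (background 31.9%). KAT8 (MOF), which acetylates H4K16, had 3.20 at 101 bp from the 5′ end, 1.57 at 151 bp and 1.42 at 2.8 kb. Its first window, chr16:31117740-31117789 on the plus strand with a q-value of 2.22e-15, was the strongest of all 253 and exceeded the strongest window of 95.1% of listed protein-coding genes. KAT7 (HBO1), which acetylates H3K14 and H4 around replication origins, had 2.85 at 76 bp (chr17:49788732-49788781, plus strand, q-value 1.52e-11) and 1.90 in the next window. Both genes were thus strongest within about 100 bp of their 5′ ends.

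KAT6A and KAT6B, paralogous H3 acetyltransferases, differed in where their windows lay. KAT6B had 2.08, 1.97, 2.36, 2.37, 2.88 and 1.64 within 450 bp, all between 18.1 and 18.5 kb from the 5′ end, the strongest being chr10:74843378-74843427 on the plus strand (q-value 1.52e-09). KAT6A had 5 windows of 1.38 to 2.68 between 2.3 and 2.9 kb and 3 of 1.21 to 1.52 beyond 109 kb. KAT5 (TIP60), which also acts in DNA repair, had 2 windows, 1.79 and 1.34.

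EP300 and CREBBP, the coactivators p300 and CBP, both stood at 9 windows. In EP300 the signal values were 1.77, 1.94, 2.46 and 1.78 in the first kb, 1.81 at 17.7 kb, and 1.31, 1.80, 2.07 and 2.38 in adjoining windows at 25 kb. CREBBP had no listed window in the first kb, but at least 11 had passed, so unlisted ones could lie there. Its values were 2.10, 1.71, 2.06, 1.65, 1.55, 1.76 and 2.53 between 29.98 and 30.4 kb, then 1.20 at 69.98 kb and 1.20 at 87.1 kb. The strongest listed windows of EP300 and CREBBP, 2.46 and 2.53, were close, and the listed clusters lay at different places along the genes. In both genes more windows had passed than are listed, so this comparison covers the listed windows only. The GCN5 homologue KAT2A, the acetyltransferase of the SAGA complex, had 3 windows of 1.72 to 2.00, KAT14 of the ATAC complex had 2.01 and 2.71, and KAT2B (PCAF) had none. The KAT14 window of 2.01 and the KAT2A window of 1.99 overlapped windows of other genes on the same strand (PET117 and AC099811.2).

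Of the HDAC genes, 6 of 11 had windows, and by class the counts were 1 of 4 in class I, 4 of 4 in class IIa, 1 of 2 in class IIb and 0 of 1 in class IV. The share over all RefSeq protein-coding genes was 31.9%, and counts this small were not tested against it or each other. Of the class I enzymes, most of which sit in nuclear corepressor complexes, HDAC1, HDAC2 and HDAC8 had no window. HDAC3 had 1, whose signal value was 1.67 at a q-value of 0.0186. This was the weakest of all members' strongest windows. All 4 class IIa enzymes, which shuttle between nucleus and cytoplasm, had windows, 14 together. HDAC5 had 2.77 and 2.06 in adjoining windows 30.3 and 30.2 kb from the 5′ end and 1.66 at 30.02 kb (strongest at chr17:44093347-44093396, minus strand, q-value 9.05e-11). HDAC4 had 7 windows of 1.56 to 2.54, HDAC9 had 1.80 and 2.72, and HDAC7 had 2.03 and 1.93. HDAC6, the tubulin deacetylase, had a single window of 1.88, and HDAC10 and HDAC11 had none. No HDAC had a window in the first kb of its RefSeq interval, but the HDAC6 window lay 636 bp from another annotated start of that gene.

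Among the sirtuins, SIRT7, a nuclear deacetylase of H3K18, had 8 windows at the 2 ends of a gene of 6.24 kb. From the 5′ end the values were 2.61, 2.96 and 1.97 within the first kb and 2.03, 2.15, 1.55, 1.61 and 1.53 in the last kb. The strongest was chr17:81917890-81917939 on the minus strand (q-value 4.17e-12). SIRT1, the nuclear deacetylase of histones and p53, had 2 adjoining windows, both at 2.66, of 18 tested. The mitochondrial sirtuins SIRT3 and SIRT4 had 1.74 and 1.85 and a single 2.09, and SIRT5, SIRT6 and the cytoplasmic SIRT2 had none.

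Along the gene, 61 of the 253 windows (24.1%, Wilson 95% interval 19.3 to 29.7%) lay in the first kb of the RefSeq interval, with 31.2% over all listed protein-coding genes. The last kb held 10 windows (3.95%, background 4.29%). These intervals cover counting error only, and windows of a gene are not independent. By gene, 23 of 53 members (43.4%, background 49.7%) had a window in the first kb and 6 (11.3%, background 10.0%) in the last. The windows of the first kb had a median signal value of 1.98 and the others of 1.78, as in all listed protein-coding genes (1.97 and 1.77). The 61 windows were unevenly spread over the classes, with 28 in demethylases, 18 in methyltransferases, 10 in acetyltransferases, 5 in sirtuins and 0 in HDACs. KDM1A, KDM2A and KDM5B supplied 20 of them. All windows of KAT7, KDM1B, KDM4D and SIRT1 lay there. As distance was counted along the genome with introns included, and the members were longer genes, the share says where a window lay in the gene and not how far along the mRNA it was.

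**Figure D4:**
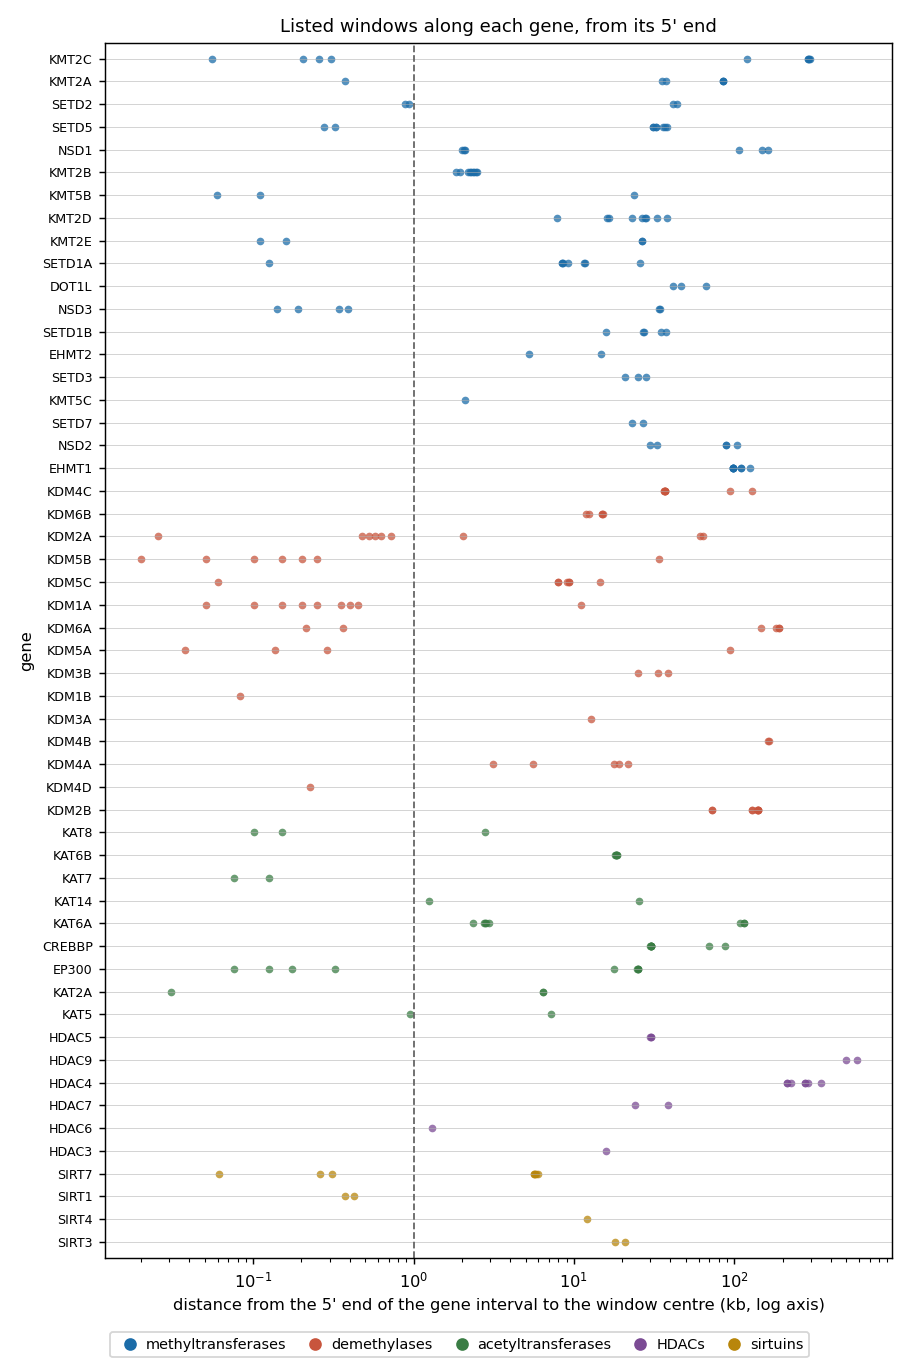
Distance from the 5′ end of the RefSeq gene interval to the centre of each listed window (horizontal axis, kb, log scale) in the 53 enzyme genes (vertical axis, coloured by class), with 1 kb dashed and 1 window closer than 20 bases drawn at 0.02 kb. Points left of the dashed line are the 61 windows of the first kb, among them 8 of the 9 in KDM1A and none in an HDAC.

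Farther along, the members had 25.7% of their windows between 20 and 50 kb and 15% beyond 100 kb, against 17.0% and 7.22% over all listed protein-coding genes. The most distant were in HDAC9 (up to 580 kb) and HDAC4 (up to 349 kb), the genes with intervals of 916 and 353 kb. The 253 windows joined into 176 blocks of adjoining windows, and 13 members (24.5%, background 22.7%) had a block of at least 150 bp.

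**Figure D5:**
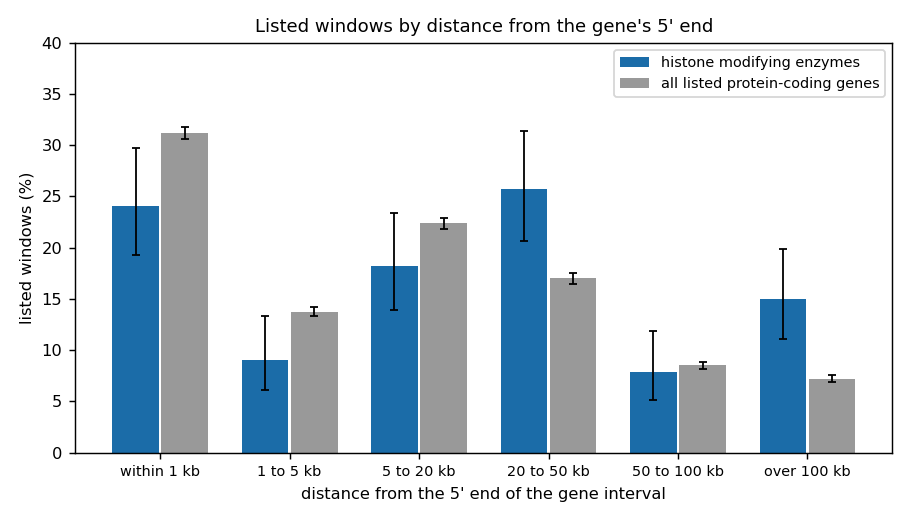
Share of listed windows (vertical axis, percent) by distance from the 5′ end of the gene interval (horizontal axis) for the 253 windows of enzyme genes (blue) and 23142 windows of listed protein-coding genes (grey), with Wilson 95% intervals for counting error. The grey set holds only windows inside the matched RefSeq interval of their gene. The blue bars are lower within 1 kb (24.1 against 31.2%) and higher at 20 to 50 kb (25.7 against 17.0%) and over 100 kb (15 against 7.22%).

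Sequence could be read for 9 member windows that lay wholly within the RefSeq table of bases around gene starts (GRCh38.p14). The letters GGAC, which occur in common forms of the DRACH motif in which m6A is placed, were found on the RNA strand in 3 of these windows (33.3%). They were found in 209 of 885 listed protein-coding windows inside that table (23.6%), and the opposite strand held them in 4 of 9 and 20.3%. The 5′ windows that held GGAC are shown by 30 bases each, so that the letters searched can be seen in their context. They belong to the H4K20 methyltransferase KMT5B (chr11:68213527-68213556, minus strand, window signal 2.54), and the H3K4 demethylases KDM5A (chr12:389159-389188, minus strand, 2.24) and KDM5B (chr1:202808396-202808425, minus strand, 2.01), with GGAC in capitals.
KMT5B: ccgcgcggcgcacGGACctgGGACgcggag
KDM5A: ggcctctgtcaggGGACttgaacgggctta
KDM5B: gcccgtacaactcGGACttgctgttgctcg
The KMT5B stretch held GGAC at 2 places, the second followed by G, which DRACH does not allow. In KDM5A and KDM5B it was followed by T, the form GGACT found in 5.54% of the 885 windows. The opposite strand held GGACT equally often in the member windows, in 2 of 9, and in 4.86% of the 885. For comparison, the strongest window without these letters was in KDM4C (chr9:6757774-6757803, plus strand, window signal 2.14), again with 30 bases shown.
KDM4C: tcccctccggaaagaatgggatatgcctgt
A match of letters does not show that m6A was present, and the 9 windows are few and all from near annotated gene starts. For the KDM4A, KDM5A and KMT2E windows, the start used belonged to another gene. The KDM4A window lay 17.8 kb into KDM4A.

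Windows were also counted in 51 genes that work with these enzymes, such as complex subunits, arginine methyltransferases and bromodomain proteins. At least 1 window was found in 37 (72.5%, Wilson 95% interval 59.1 to 82.9%, background 31.9%), with a median of 4 windows and a median strongest signal value of 2.28. Of the 5 subunits of the H3K4 methyltransferase complexes, RBBP5 and MEN1 had 1 window each (1.96 and 2.05) and WDR5, ASH2L and DPY30 had none, a share of 40% near the background of 31.9%. Of the 6 Polycomb genes 3 had a window (50%, background 31.9%). In Polycomb repressive complex 2 the core subunits EED and SUZ12 had none, as for EZH1 and EZH2. The accessory subunit JARID2 had 9 windows, the strongest at 1.85. In Polycomb repressive complex 1, BMI1 had 4 windows, the strongest at 3.21, which was about as strong as the KAT8 window. RING1 of that complex had 1 window of 1.77 and RNF2 had none. All 7 bromodomain and scaffold genes had windows, among them TRRAP (9 windows, strongest 2.43) and BRPF3 (9, strongest 2.51). Of the corepressor genes 9 of 12 did, with 9 windows each in NCOR1, SIN3B and CHD4 and none in SIN3A, RCOR1 or MTA3. Of 6 further lysine methyltransferases, 3 had a window (50%, background 31.9%). ASH1L had 9 windows (strongest 2.89), SETDB1 had 4 (1.82) and PRDM2 had 1 (1.86), and SETDB2, SUV39H1 and SUV39H2 had none. All 4 further JmjC genes had windows.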

How the data were processed

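RIP-seq libraries of SNU638 cells (2 IP-YTHDF1 and 2 Input) were grouped by their labels. The submitters' processing notes name STAR 2.7.3a and GRCh38; the peak caller is not given in the sources used here. The authors deposited 1 table of 50 bp windows, in which the signal value and rank are a score of the peak with no stated scale. The deposited p-value and q-value of each window are the authors' own, with q-values up to 0.05. All columns belong to the libraries together, and 0 numeric columns were left unmapped.

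Of 26820 rows, 1 exact repeat was dropped. Starts were converted to count from 1. Coding symbols were matched to RefSeq (GRCh38.p14), and 6365 of 6671 (95.4%) matched a symbol or unambiguous synonym. The background was 19970 RefSeq protein-coding genes. Shares by position over all listed protein-coding genes used the 23142 windows inside a matched RefSeq interval. By gene they used the 6175 genes whose windows all lay inside one. Windows tested per gene were computed by dividing each q-value by its p-value and multiplying by the rank of the p-value within the gene, for p-values above 1e-14, which gives a lower bound in genes with 9 windows. Promoter rows matched 46 of the 53 members. Shares have Wilson 95% intervals. With 1 value per window, no test between groups was run, and intervals cover counting error only.

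The members and lists were chosen with earlier results of these data known. All windows were given for the 6 members with the largest strongest signal value and for EP300, CREBBP, KDM1A, SETD2 and DOT1L; the others were given by number and range, with paralogs side by side. Some genes are not reported here by name. The 5′ kb was examined after the data were seen. Alternatives were stricter q-value and signal limits, a Bonferroni limit over 287331 windows, joined windows, genes below 9 windows or with at least 30 tested windows, windows not shared with other genes, and other summaries. The scripts were tested on simulated data. The software was matplotlib 3.10.9, SciPy 1.17.1, NumPy 2.4.6 and pandas 2.3.3 under Python 3.11.15.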

Additional observations from a re-analysis of the deposited data

How the results depend on the processing

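At a q-value of at most 0.001, 39 members (73.6%) and 114 of 253 windows were left, with a median of 3 windows per member and a median strongest signal value of 2.55. Over all listed protein-coding genes these medians were 2 and 2.42, and 66.8% of genes and 10800 of 24747 windows were left. EHMT2, HDAC3, HDAC6, HDAC7, KAT5, KDM1B, KDM3A, KDM4B, KDM4D, KMT5C, SETD3, SETD7, SIRT3 and SIRT4 dropped out. At a signal value of at least 2, 41 members (77.4%) and 89 windows were left. Over all listed protein-coding genes, 69.5% of genes and 8861 of 24747 windows were left. A Bonferroni limit over all windows counted as tested left 27 of the 72 enzyme genes, where it left 12.7% of all RefSeq protein-coding genes. Among members with fewer than 9 windows, the median was 3 windows and the median strongest signal value 2.24, with 2 and 2.19 over all listed protein-coding genes. Their windows lay at a median of 29.7% of the gene (29.6% over all members). Over all listed protein-coding genes these positions were 31.6% and 33.2%. The median strongest value became 1.9 when the mean over a gene's windows replaced its strongest, below the 1.93 of all listed protein-coding genes, so the order of the 2 sets turned. The median position became 32.3% when taken per gene, close to the 33.0% over all listed protein-coding genes. These shifts follow from the windows or genes each limit removes or the summary it takes. The share of windows near the 5′ end, chosen after seeing the data, lay between 21.3% and 26.7% under its alternatives (24.1% within 1 kb), below the same share of all listed protein-coding genes in each. Joining adjoining windows (176 blocks), leaving out windows shared with another gene (247) and genes with at least 30 tested windows (23.3% at 9) changed the values less than 1.5 times. Under that last limit 20.9% of all listed protein-coding genes stood at 9. Without it the shares were 18.9% and 12.8%, so the limit brought the 2 sets closer.

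No paired analysis was possible because no column belonged to a single replicate, and no replicate was left out for the same reason. The share of windows with a DRACH motif and its alternative were not run, since no genome sequence was used here. Where a gene has 9 windows, its positions are those of the listed windows only. The depth of the libraries is unknown.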
